A study of Mus musculus with 4 samples.

Results

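Transcripts of the BCL2 family, the proteins that set the threshold for mitochondrial cell death, were measured in activated lung group 2 innate lymphoid cells (ILC2s). The 10 genes described were matched by symbol in both deposited tables, which hold 22558 genes with read counts and 18324 genes with normalized counts. They comprise the pro-survival genes Bcl2, Bcl2l1, Mcl1, Bcl2a1b and Bcl2a1d, the BH3-only genes Bcl2l11, Bbc3 and Pmaip1, and the effector genes Bax and Bak1. Bcl2, Mcl1, Bcl2a1b and Bcl2l11 were higher in ILC2s labelled ICAM-1 KO than in WT ILC2s, so the genes that rose included both pro-survival genes and the pro-death gene Bcl2l11. The calls of Bcl2 and Bcl2l11 held under every alternative setting run, whereas Mcl1 missed the threshold under some, and so did Bcl2a1b, whose reads are shared with near-identical copies. No tested member fell.

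In healthy cells the pro-survival proteins hold the effectors BAX and BAK in check. BH3-only proteins, which respond to cytokine withdrawal, DNA damage and other stresses, bind the pro-survival proteins and relieve that restraint, after which BAX and BAK open the outer mitochondrial membrane and cytochrome c activates caspases. Lymphocytes depend on cytokines of the common gamma chain family for the expression of several pro-survival members.

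RNA was sequenced from 2 WT and 2 ICAM-1 KO samples, each made from the pooled lungs of 4 mice. WT mice were C57BL/6. The mice labelled ICAM-1 KO were of the ICAM-1 deficient strain B6.129S4-Icam1tm1Jcgr/J, whose altered allele is carried in all cells and not in ILC2s alone. All mice were 6 weeks old and received 3 intranasal challenges of 0.5 µg recombinant mouse IL-33, an alarmin that activates ILC2s, and ILC2s were sorted on day 4 as CD45+ lineage-negative cells with ST2 and CD127. No unchallenged group was part of the series, so the values describe genotype within activated cells. With 2 pools per group, the edgeR p-values weigh each difference against the spread between these pools, estimated partly from other genes.

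The libraries held 24796148 to 28782471 counts. Log2 CPM (counts scaled to the library total) correlated at 0.966 between the WT libraries, 0.969 between the ICAM-1 KO-labelled libraries and 0.931 to 0.938 across groups. The targeted gene, Icam1 (chr9:21015985-21028817), had no lower RNA level in the group labelled ICAM-1 KO. Its normalized counts were 85.2 and 83.3 in WT and 97.6 and 110 in the other group, with a log2 fold change of 0.33 (SE 0.11, adjusted p = 0.0745). Counts over a whole gene do not check an altered allele that is still transcribed, and these samples are therefore named by their label, as ICAM-1 KO-labelled libraries. The paper reports that ICAM-1 deficient mice lack ICAM-1, measured as protein by flow cytometry on lung ILC2s after IL-33 challenge.

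Among the markers of the sorted cells, Gata3, the factor that specifies ILC2s, had 16261 and 15578 counts in WT and 12252 and 15362 in the ICAM-1 KO-labelled libraries. Of 10 ILC2 markers, 1 rose and 3 fell, and their summed normalized counts were 4953 to 5488 in WT and 4446 to 4656 in the other group. Markers of cells outside the gate moved too. T cell markers summed to 274 to 354 in WT and 507 to 639 in the ICAM-1 KO-labelled libraries (4 of 7 higher), and B and plasma cell markers to 227 to 375 and 561 to 680 (4 of 5 higher). Neutrophil markers summed to 74.3 to 77.9 and 137 to 178 (4 of 5 higher), and macrophage and monocyte markers to 219 to 220 and 455 to 703 (5 of 6 higher). Endothelial markers summed to 103 to 105 and 240 to 256 (5 of 5 higher), and epithelial markers to 154 to 375 and 400 to 1087 (2 of 4 tested higher). The epithelial sum includes much Scgb1a1, which overlapped (338 and 142 in WT, 123 and 510 in the ICAM-1 KO-labelled libraries). Scgb1a1 and Epcam were not called. Sftpc, called higher, went from 24.2 and 0.57 to 253 and 537. Sftpb, also called higher, went from 1.32 and 0.032 to 6.87 and 17.0. Eosinophil markers went the other way in sum, from 65.9 to 93.3 down to 17.4 to 33 (1 higher and 2 lower of 3 tested), and Epx, eosinophil peroxidase, had 1027 and 739 counts in WT and 0 in both ICAM-1 KO-labelled libraries. Regulatory T cell markers summed to 1048 to 1306 and 1153 to 1220 (2 higher and 1 lower of 4). That sum is dominated by Il2ra, which is also an ILC2 marker and was lower, whereas Foxp3 went from 42.4 and 53.9 to 157 and 181 and Ikzf2 from 27.2 and 25.8 to 70 and 80.2. Mast cell and basophil markers summed to 595 to 680 and 663 to 783 (none of 5 called), and proliferation markers to 1052 to 1240 and 980 to 1063 (none of 5 called). Of the first-listed markers, Foxp3 for regulatory T cells, Cd79a for B cells, S100a8 for neutrophils, Lyz2 for macrophages, Pecam1 for endothelium and Sftpc for epithelium were called higher, Epx was called lower, and Gata3, Cd3e for T cells, Cpa3 for mast cells and Mki67 for proliferation were not called. Apart from Epx, no listed marker was at 0 in a whole group. Many leukocytes also express BCL2 family genes, and the part of these cells in the results was not tested. In bulk RNA, fewer cells of a type and less RNA per cell cannot be told apart.

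Over the family, 9 of the 10 members passed the filter on low values (normalized counts averaging 1 or more and summing to 10 or more), and Bak1 did not. Of the 9 tested, 4 were higher and none lower at an adjusted p under 0.05 (edgeR's quasi-likelihood test, Benjamini-Hochberg adjustment). Among all 11711 genes tested, 8.8% were called higher and 4.97% lower. Bcl2l11 and Bcl2a1b were also 2-fold higher or more, and 4.94% of all genes were called higher by that much. The 2 libraries of each group did not overlap in normalized count for 7 members, 6 of them higher in the ICAM-1 KO-labelled libraries (Bcl2, Mcl1, Bcl2a1b, Bcl2l11, Bbc3 and Pmaip1) and 1 lower (Bax). Over all genes, 28.3% had both ICAM-1 KO-labelled libraries above both WT libraries and 31.3% had both below. The members' median log2 fold change was 0.38, with a range of -0.11 to 1.30, beside a median of 0.01 over all genes tested. The members were chosen with earlier results of these data known, so these comparisons with all genes are descriptive only. Without WT replicate 1, 2 members (Bcl2 and Bcl2l11) were called instead of 4, and the same number was called with no filter on low counts.

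**Figure D1:**
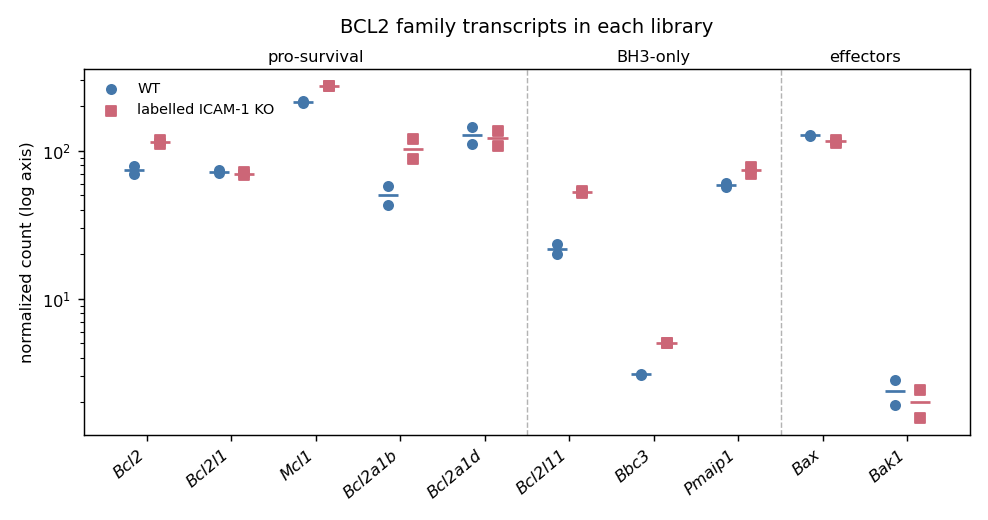
Normalized counts (vertical axis, log scale) of each of the 10 members in the 2 WT libraries and the 2 ICAM-1 KO-labelled libraries, where points are libraries and short lines are group means. Bcl2l11 and Bcl2 separate the groups widely, with 20.1 to 23.6 against 52.1 to 53.8 and 69.5 to 79.3 against 112 to 119, whereas Bcl2l1 and Bcl2a1d overlap.

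Bcl2 (chr1:106538178-106714274, minus strand), the founding pro-survival gene and a lymphocyte survival factor, had normalized counts of 69.5 and 79.3 in WT and of 112 and 119 in the ICAM-1 KO-labelled libraries. Both of the latter lay above both WT values by more than the spread within either group. The means were 74.4 ± 6.92 and 116 ± 5.11 (SD, n = 2 each). By edgeR's quasi-likelihood test the log2 fold change was 0.66 (SE 0.11, 95% confidence interval 0.42 to 0.91, adjusted p = 0.00705), a 1.58-fold higher level. The adjusted p ranged from 9.27e-06 to 0.0492 over the alternative settings. An antisense transcript, D630008O14Rik, overlaps exons of Bcl2, and since strand was not stated its 28.0 to 112 counts cannot be separated from those of the 2105 to 3746 assigned to Bcl2.

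Mcl1 (chr3:95658788-95663176, plus strand), which encodes a short-lived pro-survival protein required by lymphocytes at many stages, had normalized counts of 219 and 212 in WT. In the ICAM-1 KO-labelled libraries it had 275 and 276. The groups did not overlap, and the gap between them exceeded the differences within a group. The means were 216 ± 4.63 and 275 ± 0.691 (SD, n = 2), and the log2 fold change was 0.38 (SE 0.083, interval 0.19 to 0.57, adjusted p = 0.0195). The adjusted p rose above 0.05 without WT replicate 1 (0.0694), without WT replicate 2 (0.0936), without ICAM-1 KO replicate 2 (0.0606) and with no filter on low counts (0.0804), and it ranged from 0.00108 to 0.0936 over all alternatives, whereas the log2 fold change kept between 0.33 and 0.40.

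Bcl2l1 (chr2:152780668-152831728, minus strand), the gene of BCL-XL, overlapped between the groups. It had normalized counts of 74.0 and 70.6 in WT and of 72.4 and 68.4 in the ICAM-1 KO-labelled libraries. The log2 fold change was -0.01 (SE 0.107, interval -0.25 to 0.23, adjusted p = 0.952), and the sign turned without WT replicate 1 (0.022) or without ICAM-1 KO replicate 2 (0.018). Of the pro-survival members with their own sequence, Bcl2 and Mcl1 thus rose and Bcl2l1 had no detectable difference at this replication.

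Bcl2a1b and Bcl2a1d encode A1, a pro-survival protein induced by NF-kB in activated leukocytes. The mouse holds several near-identical copies of this gene on chromosome 9, and the coding sequences of Bcl2a1b and Bcl2a1d differed at 6 of 516 bases (98.8% identity). The first 150 coding bases of each are shown because the split of reads between the copies rests on such positions. Coordinates are in mm10, on the plus strand at chr9:89199360-89199509 for Bcl2a1b and on the minus strand at chr9:88731570-88731719 for Bcl2a1d, and capitals mark the 3 bases that differ.
Bcl2a1b: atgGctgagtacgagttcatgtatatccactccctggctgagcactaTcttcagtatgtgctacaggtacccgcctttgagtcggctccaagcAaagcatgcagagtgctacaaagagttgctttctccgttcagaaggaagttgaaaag
Bcl2a1d: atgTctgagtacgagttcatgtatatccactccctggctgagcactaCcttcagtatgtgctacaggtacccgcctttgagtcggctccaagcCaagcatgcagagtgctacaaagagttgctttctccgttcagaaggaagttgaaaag
Of all 75-base windows in the annotated exons, 43.5% of those of Bcl2a1b and 67.6% of those of Bcl2a1d also occurred in another copy. The window length was chosen here, as no read length was given in the sources used here.

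Bcl2a1b (chr9:89199209-89207827) had normalized counts of 43.1 and 57.6 in WT and 88.0 and 120 in the ICAM-1 KO-labelled libraries. The groups did not overlap, although the values within each spread widely (50.3 ± 10.2 and 104 ± 22.4, SD, n = 2). The log2 fold change was 1.07 (SE 0.181, interval 0.66 to 1.48, adjusted p = 0.00761), a 2.11-fold higher level. Without WT replicate 1 the adjusted p was 0.0506, with no filter on low counts it was 0.0602, and over all alternatives it ranged from 1.23e-07 to 0.135. Exons of Gm29094 overlap Bcl2a1b on the same strand, and that gene was assigned a further 159 to 361 counts per library, beside 1304 to 3757 for Bcl2a1b.

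Bcl2a1d (chr9:88723285-88731914) had normalized counts of 111 and 145 in WT and of 109 and 136 in the ICAM-1 KO-labelled libraries. The groups overlapped, and replicate 1 was below replicate 2 in both. Its log2 fold change was -0.04 (SE 0.151, interval -0.38 to 0.30, adjusted p = 0.899), and the sign turned without WT replicate 2 (0.17) or without ICAM-1 KO replicate 1 (0.12).

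Since the copies share sequence, the value of any copy on its own is uncertain. Bcl2a1b took 27.3% and 27.7% of the counts assigned to the 4 Bcl2a1 genes in WT and 43.2% and 45.3% in the ICAM-1 KO-labelled libraries. Bcl2a1d took 70.4% and 69.7% in WT and 53.5% and 51.4% in the other group. The share of Bcl2a1b thus separated the groups by far more than the spread within them (27.5 ± 0.346% and 44.3 ± 1.46%), with an exact two-sided permutation p of 0.333, the smallest that 2 against 2 libraries allow. The summed counts were 4786 and 6552 in WT and 5862 and 8292 in the ICAM-1 KO-labelled libraries, so the groups overlapped. When the copies were tested as 1 gene, the log2 fold change was 0.38 (SE 0.156, interval 0.03 to 0.74, adjusted p = 0.135), and the call of Bcl2a1b was lost. Bcl2a1a had 67.1 and 115 counts in WT and 155 and 228 in the ICAM-1 KO-labelled libraries (log2 fold change 1.14, adjusted p = 0.0840), and Bcl2a1c had 36.8 to 51.0 counts in all libraries and was not tested. The Bcl2a1a, Bcl2a1b and Bcl2a1d genes lie 67.7 to 68.2 Mb from Icam1 on the same chromosome.

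**Figure D2:**
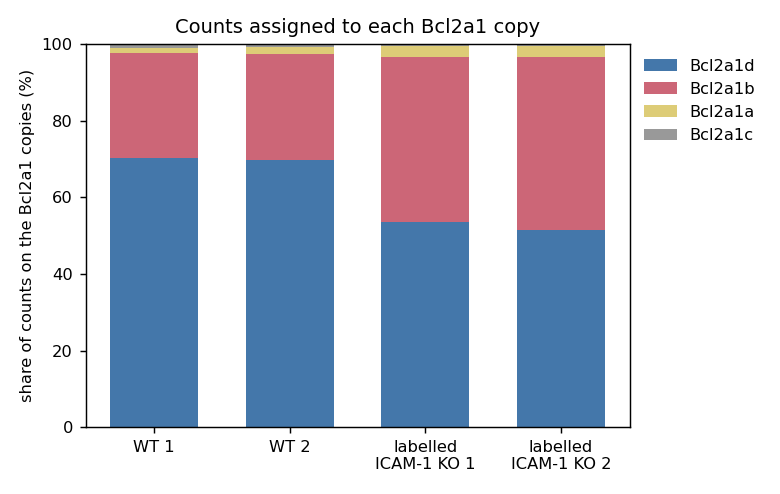
Share of the counts on the Bcl2a1 genes (vertical axis, percent) that was assigned to each copy, as stacked bars for each of the 4 libraries. The share of Bcl2a1b is 27.3% to 27.7% in WT and 43.2% to 45.3% in the ICAM-1 KO-labelled libraries.

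Bcl2l11 (chr2:128126038-128162547, plus strand) encodes BIM, the BH3-only protein that kills lymphocytes deprived of cytokine, and changed more than any other member tested. Its normalized counts were 23.6 and 20.1 in WT and 52.1 and 53.8 in the ICAM-1 KO-labelled libraries, from 635 to 715 and 1499 to 1689 counts. The groups were far apart, and the values within each lay close together. The means were 21.9 ± 2.47 and 53.0 ± 1.26 (SD, n = 2), and the log2 fold change was 1.30 (SE 0.147, interval 0.97 to 1.64, adjusted p = 0.00143), a 2.47-fold higher level. This call held in all alternatives, with adjusted p-values from 1.39e-11 to 0.0232 and log2 fold changes from 1.19 to 1.42.

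Bcl2l11 is a known target of FOXO factors, which cytokine signalling through AKT keeps out of the nucleus. The 250 bases before the start of Bcl2l11 and of Bcl2 are shown because these are the BH3-only gene and the pro-survival gene with its own sequence that rose with the smallest adjusted p. Both are RefSeq sequences of GRCm38.p6, from chr2:128125788-128126037 on the plus strand and chr1:106714291-106714540 on the minus strand, written in the direction of transcription. Capitals mark the letters GTAAACA, a core that FOXO factors bind.
Bcl2l11: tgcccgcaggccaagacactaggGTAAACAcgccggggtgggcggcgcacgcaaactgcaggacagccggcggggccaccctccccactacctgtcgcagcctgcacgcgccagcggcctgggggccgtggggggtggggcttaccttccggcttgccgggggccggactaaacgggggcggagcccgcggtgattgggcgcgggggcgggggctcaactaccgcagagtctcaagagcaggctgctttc
Bcl2: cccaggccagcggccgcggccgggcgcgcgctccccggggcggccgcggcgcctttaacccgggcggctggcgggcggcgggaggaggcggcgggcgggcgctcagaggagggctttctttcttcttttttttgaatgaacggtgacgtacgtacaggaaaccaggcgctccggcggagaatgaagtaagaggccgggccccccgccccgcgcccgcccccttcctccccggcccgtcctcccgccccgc
The match in Bcl2l11 began 227 bases before the start, and the Bcl2 sequence held none. Both promoters were rich in G and C (72% and 74.8%). Searched on both strands, GTAAACA was in 3.65% of all 32851 RefSeq promoters of 250 bases before to 50 bases after a start, and among the 14 promoters listed for 9 members it was in those of Bcl2l11 and Bbc3. The STAT motif TTCNNNGAA was in 8.3% of all promoters and the CRE motif TGACGTCA in 1.79%, and neither was in a member's promoter. These matches describe letters in a window and no binding was measured. By edgeR's quasi-likelihood test, Foxo1 (log2 fold change 0.24, adjusted p = 0.207), Foxo3 (0.45, 0.443) and Akt1 (-0.18, 0.176) were not called. Whether FOXO factors act on Bcl2l11 in these cells was not tested.

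Bbc3 (chr7:16308393-16318205, plus strand) encodes PUMA, a BH3-only protein induced by p53 and by FOXO factors. It was low, with 92 and 97 counts in WT and 144 and 157 in the ICAM-1 KO-labelled libraries, or normalized counts of 3.07 and 3.1 against 5.03 and 5.03. The groups did not overlap, and the values within each were almost the same. The log2 fold change was 0.74 (SE 0.352, interval -0.06 to 1.53), but the adjusted p was 0.197 by edgeR's quasi-likelihood test, so at these counts the difference was not called.

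Pmaip1 (chr18:66458604-66465550, plus strand) encodes NOXA, a BH3-only protein that binds MCL1 and A1. Its normalized counts were 61.1 and 56.7 in WT and 69.7 and 78.1 in the ICAM-1 KO-labelled libraries. The groups did not overlap, but the difference did not pass the test (log2 fold change 0.36, SE 0.119, interval 0.09 to 0.62, adjusted p = 0.0796). Of the 3 BH3-only members, Bcl2l11 thus rose, and Bbc3 and Pmaip1 had higher values that were not called.

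Bax (chr7:45461697-45466898, minus strand), the more abundant effector, had normalized counts of 126 and 128 in WT and of 114 and 119 in the ICAM-1 KO-labelled libraries. Both of the latter were below both WT values, by a small margin. The log2 fold change was -0.11 (SE 0.0936, interval -0.32 to 0.11, adjusted p = 0.485). Gm45808 overlaps Bax on the same strand.

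Bak1 (chr17:27019810-27029009, minus strand), the other effector, was at the limit of what was tested, with 83.9 and 59.8 counts in WT and 69.0 and 48.0 in the ICAM-1 KO-labelled libraries. The groups overlapped, and the summed normalized count of 8.72 was below the filter. Under 3 other filters the log2 fold change was -0.23 to -0.28 with adjusted p-values of 0.775 to 0.795. Exons of Ggnbp1 on the other strand overlap Bak1.

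**Figure D3:**
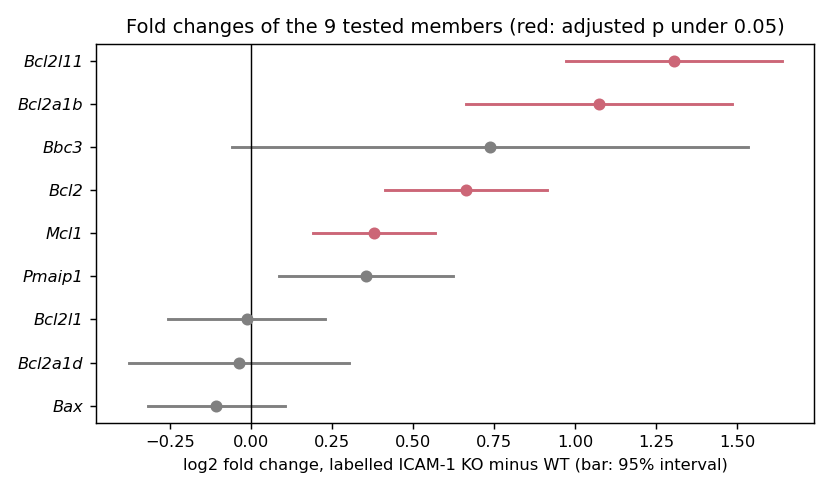
Log2 fold change of the 9 tested members, ICAM-1 KO-labelled libraries minus WT (horizontal axis), with 95% confidence intervals from edgeR's quasi-likelihood fit. Bcl2l11 (1.30), Bcl2a1b (1.07), Bcl2 (0.66) and Mcl1 (0.38) were called, and the intervals of the other members include 0 or, for Pmaip1, begin at 0.09.

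Levels of different genes were compared per length, as TPM (the length-corrected share of a gene in its library). In WT the order of mean TPM was Bcl2a1d (444 ± 73.5), Bax (242 ± 2.23), Mcl1 (189 ± 7.73), Bcl2a1b (184 ± 34.1), Pmaip1 (64.7 ± 4.69), Bcl2l1 (47.3 ± 2.49), Bcl2 (24.4 ± 1.80), Bcl2l11 (8.18 ± 1.08), Bbc3 (4.32 ± 0.0494) and Bak1 (2.92 ± 0.830), each with SD and n = 2. Mcl1 and Bcl2a1b overlapped, and the other neighbours in this order did not. In the ICAM-1 KO-labelled libraries, Bcl2a1b (396 ± 70.6) and Mcl1 (252 ± 9.04) stood above Bax (230 ± 2.04), and Bcl2a1b overlapped Bcl2a1d (442 ± 52.2). Below them the order was the same, with Pmaip1 at 84.5 ± 3.6, Bcl2l1 at 48.0 ± 3.76, Bcl2 at 39.5 ± 0.227, Bcl2l11 at 20.6 ± 0.302, Bbc3 at 7.36 ± 0.279 and Bak1 at 2.56 ± 0.892. With the longest transcript of each gene as its length, the mean TPM over all libraries of Bcl2l1 (65.2) stood above that of Pmaip1 (57.3), and that of Bax (259) above that of Bcl2a1b (223). Among the pro-survival members, A1 and Mcl1 transcripts were under either length the most abundant over all libraries and Bcl2 the least abundant. Bax had a far higher level than Bak1.

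Summed by role, the 5 pro-survival members had 819 and 960 TPM in WT and 1100 and 1255 in the ICAM-1 KO-labelled libraries. The 3 BH3-only members had 81.3 and 73.1 TPM in WT and 110 and 115 in the other group, and the 2 effectors had 248 and 243 against 235 and 231. The sums of both the pro-survival and the BH3-only members were higher in each ICAM-1 KO-labelled library, and those of the effectors slightly lower. The pro-survival sum includes Bcl2a1b, with a mean TPM of 184 in WT and 396 in the ICAM-1 KO-labelled libraries. Its call was lost when the copies were summed. The BH3-only sum includes Pmaip1, with 64.7 and 84.5, which was not called. The sums therefore do not describe every gene of a role.

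Within a library the scaling drops out of the ratio between members. The TPM ratio of Bcl2l11 to Bcl2 was 0.387 and 0.289 in WT and 0.529 and 0.514 in the ICAM-1 KO-labelled libraries. Both genes rose, Bcl2l11 with the larger fold change, and the mean ratio went from 0.338 ± 0.0694 to 0.522 ± 0.0106. The ratio of Bcl2l11 to Mcl1 was 0.0459 and 0.0403 in WT and 0.0806 and 0.0831 in the other group, 1.90 times the WT mean. Bax to Bcl2 moved the other way, from 10.6 and 9.40 to 5.89 and 5.77, which is 0.584 times the WT mean. In all 3 ratios the groups did not overlap, and the exact two-sided permutation p was 0.333 for each, the smallest that 2 against 2 libraries allow. Other pairs of members were not compared in this way.

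**Figure D4:**
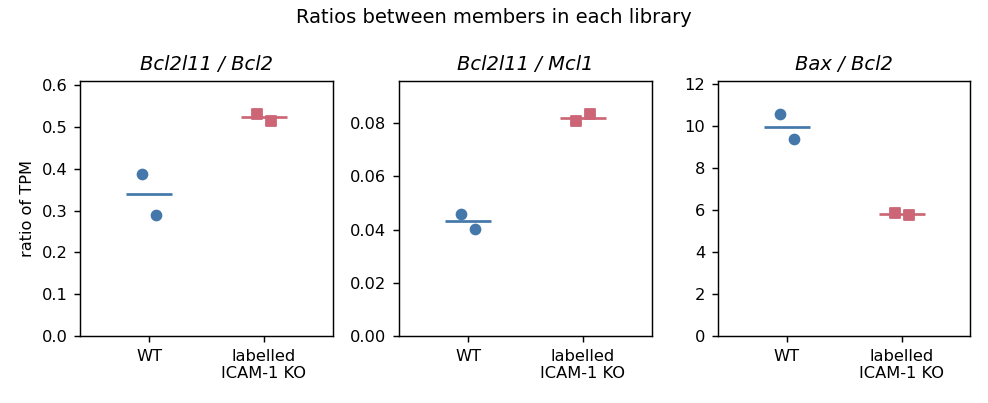
Ratios of TPM between members in each library (vertical axes, linear and starting at 0), with points for libraries and short lines for group means. Bcl2l11 to Bcl2 and Bcl2l11 to Mcl1 are higher in both ICAM-1 KO-labelled libraries (0.514 to 0.529 and 0.0806 to 0.0831), and Bax to Bcl2 is lower (5.77 to 5.89 against 9.40 to 10.6).

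Of 16 other BCL2 family and related genes measured (the other family genes), 11 passed the filter, none rose and 1 fell. Their median log2 fold change was 0.01, and over all genes tested 8.8% were called higher and 4.97% lower. The gene that fell was Bik, a BH3-only gene of the endoplasmic reticulum, with normalized counts of 19.5 and 13.4 in WT and 8.26 and 7.36 in the ICAM-1 KO-labelled libraries. Its log2 fold change was -1.05 (SE 0.274, adjusted p = 0.0368), and it was not called without WT replicate 1, without ICAM-1 KO replicate 2 or with no filter on low counts. Those with the highest mean normalized counts, which are not corrected for length, were listed as related genes and were not called. They were the autophagy gene Becn1 (log2 fold change 0.01, adjusted p = 0.953), Bclaf1 (-0.06, 0.728) and the mitophagy receptor Bnip3l (0.16, 0.313). Bmf, a BH3-only gene chosen after its values were seen, was below the filter with 36 and 41 counts in WT and 116 and 100 in the ICAM-1 KO-labelled libraries. It was called only where every library had to reach 10 counts (log2 fold change 1.55, adjusted p = 0.0457), and the adjusted p was 0.0819 with filterByExpr and 0.118 with no filter.

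Among 30 upstream genes, the receptors, kinases and transcription factors known to control the family, 2 rose and 4 fell, with a median log2 fold change of -0.03, beside 8.8% called higher and 4.97% lower over all genes tested. The number lower was 1 without WT replicate 1 or with no filter on low counts and 2 without WT replicate 2 or ICAM-1 KO replicate 1. The number higher was 1 without WT replicate 1, WT replicate 2 or ICAM-1 KO replicate 2, and under limma, edgeR's older test form and each other filter on low counts. Rel, the NF-kB subunit that induces A1 in lymphocytes, had normalized counts of 68.4 and 78.6 in WT and 124 and 116 in the ICAM-1 KO-labelled libraries (log2 fold change 0.73, adjusted p = 0.00418). Il2ra, the alpha chain of the IL-2 receptor, was lower, with 699 and 836 against 536 and 524 (-0.51, adjusted p = 0.0133). Trp53, which encodes the p53 activator of Bbc3, Pmaip1 and Bax, had 165 and 155 against 104 and 117 (-0.50, adjusted p = 0.0152). E2f1, a cell cycle factor that can induce BH3-only genes, had 80.6 and 62.7 against 43.6 and 41.9 (-0.72, adjusted p = 0.0145). The other calls, named after their values were seen, were the stress factor Ddit3 (0.95, adjusted p = 0.0486) and Myc (-0.45, adjusted p = 0.0417). The genes of the list with the highest mean normalized counts, Il2rg for the common gamma chain (-0.07, adjusted p = 0.646) and Jak1 (-0.08, adjusted p = 0.565), were not called. Those counts are not corrected for length. Il2ra, called lower, had a higher mean TPM over all libraries than Jak1 (347 against 302).

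Of 13 downstream genes, which act at or after the opening of mitochondria, none rose and 3 fell, with a median log2 fold change of -0.20, beside 4.97% called lower over all genes tested. Cycs, the cytochrome c gene, had normalized counts of 336 and 354 in WT and 218 and 249 in the ICAM-1 KO-labelled libraries. The groups did not overlap (log2 fold change -0.53, adjusted p = 0.0098). The outer membrane channel Vdac2 had 251 and 257 against 176 and 184 (-0.47, adjusted p = 0.0101), and Vdac1 had 182 and 178 against 143 and 143 (-0.31, adjusted p = 0.0489). Of the 13 genes, 0 were called lower without WT replicate 2, and 2 without each of the other libraries in turn, under each other filter on low counts, the older form of edgeR's test or a replicate block. Protein levels and cell death were not measured in these data.

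**Figure D5:**
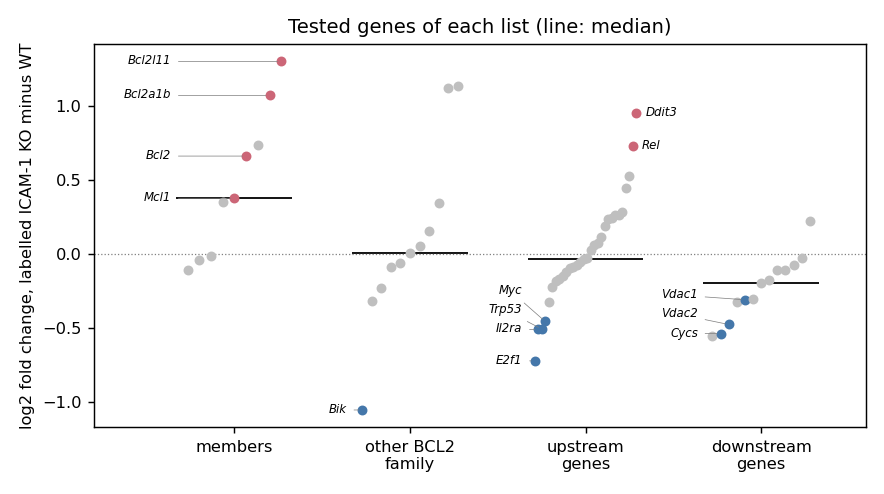
Log2 fold change, ICAM-1 KO-labelled libraries minus WT, of each tested gene in the members (9 genes), the other BCL2 family and related genes (11), the upstream genes (30) and the downstream genes (13), with a line at each list's median (0.38, 0.01, -0.03 and -0.20). Named, coloured points were called higher or lower by edgeR's quasi-likelihood test, and grey points were not.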

How the data were processed

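The authors aligned reads from low-input cDNA libraries with STAR to mm10 with GENCODE annotation in Partek, and deposited expected counts per gene, not normalized, and a signal made by upper quartile normalization. The submitters' processing notes list CASAVA 1.8.2 and STAR 3.5.3. Whether counting used strand is not given in the sources used here. Groups came from the sample labels. The members and lists were chosen with earlier results of these data known.

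After rounding to whole numbers, the deposited expected counts were tested over 11711 genes (mean normalized count at least 1, sum at least 10) with edgeR 4.0.16 (quasi-likelihood, upper quartile factors, no covariate) in R 4.3.3. The Benjamini-Hochberg adjustment ran over all of them, with calls below an adjusted p of 0.05. Means and SDs are of the deposited normalized signal, called normalized counts. TPM was computed here from the deposited expected counts and exon-union lengths of GENCODE M21. Alternatives used DESeq2 1.42.0, limma 3.58.1 (pseudocount 1), TMM factors, other filters and a replicate block. The scripts were tested on simulated data. The GSA test of Partek that the study used was not run.

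All members were named, with Icam1, the called other family genes and the 3 with the highest mean normalized count. Of each pathway list, up to 4 called genes of lowest adjusted p and the 2 of highest mean normalized count were named. The first marker of each cell type was named too. Bmf, Bcl2a1a, Bcl2a1c, Ikzf2, Scgb1a1, Sftpb, Epcam, Foxo1, Foxo3, Akt1, Ddit3 and Myc were named after their values were seen. A gene of the downstream list is not reported here. Reads carry no molecular identifiers, so counts are not independent molecules.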

Additional observations from a re-analysis of the deposited data

How the results depend on the processing

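Bcl2 and Bcl2l11 were called under each alternative run, and Bcl2a1b and Mcl1 were not under all. With no filter on low counts, 2 members were called higher, the log2 fold changes of Mcl1 (0.33, adjusted p = 0.0804) and Bcl2a1b (1.03, adjusted p = 0.0602) missed the threshold, 0 other family genes and 1 upstream gene were lower, 1 upstream gene was higher, and 334 genes in all were higher and 201 lower. That setting tests more genes. Leaving out 1 library gave 2 to 4 members called higher, with 2 without WT replicate 1, and 0 to 1 other family genes lower, 1 to 2 upstream genes higher, 1 to 4 upstream and 0 to 2 downstream genes lower, and 479 to 948 genes higher and 158 to 388 lower over all genes. It gave log2 fold changes of -0.046 to 0.022 for Bcl2l1, 0.36 to 0.40 for Mcl1, 0.82 to 1.30 for Bcl2a1b and -0.22 to 0.17 for Bcl2a1d. With the Bcl2a1 copies summed, the log2 fold change was 0.38 (adjusted p = 0.135), which ended the call of Bcl2a1b and turned the sign of Bcl2a1d. Requiring 10 counts in every library called 1 other family gene (Bmf) higher. Under limma, the older form of edgeR's test, that filter and filterByExpr, 1 upstream gene was higher, and DESeq2 called 930 genes lower over all genes. The cause was not tested. With the longest transcript as length, mean TPM over the 4 libraries was 65.2 for Bcl2l1, 169 for Mcl1, 340 for Bcl2a1d, 17.6 for Bcl2l11, 5.25 for Bbc3, 57.3 for Pmaip1 and 259 for Bax. Replicate numbers are shared by the groups, but over the tested genes same-numbered samples did not deviate together (r = -0.058). A single correlation cannot show whether same-numbered samples shared a batch. With a replicate block, the called members were the same (Mcl1 adjusted p = 0.0171) and 1077 genes were higher and 638 lower. Bbc3 and Bak1 had the fewest counts among the members, 48 to 157 per library, and their values carry the largest counting error.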
